A study of Mus musculus with 4 samples.

Results

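Voltage-gated calcium channels of the L type and the T type were described in HL-1, an immortalised mouse atrial myocyte line that keeps contracting in culture. The family was taken as 10 genes, namely the pore-forming alpha1 subunits Cacna1c and Cacna1d (L-type) and Cacna1g and Cacna1h (T-type), the cytoplasmic beta subunits Cacnb1, Cacnb2, Cacnb3 and Cacnb4, and the extracellular alpha2delta subunits Cacna2d1 and Cacna2d2. Its members were all probe sets annotated to exactly 1 of these symbols, 24 of the 45037 probe sets on the array. They covered 9 of the 10 genes, among 18193 genes with such a probe set, and expression of Cacnb3, for which the annotation names none, is not analysed here.

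The 2 stimulated samples were HL-1 cells grown to confluence on gelatin and fibronectin and then paced electrically for 24 h at 300 beats per minute, per the labels 1.5 to 2 times the control rate. The 2 control samples were HL-1 cells grown the same way that beat on their own, without electrical stimulation. All 4 arrays share the genotype of the line. The titles number the stimulated samples as experiments 1 and 2 and give the controls no such number. Since no label says that the samples were separate cultures, every p-value reflects the spread between these samples alone, which may be technical. No sample was paced at the control rate, so pacing itself and the faster rate cannot be told apart.

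A voltage-gated calcium channel opens when the membrane depolarises and lets calcium into the cell. The alpha1 subunit forms the pore, the beta subunit brings it to the membrane and tunes its gating, and the alpha2delta subunit supports its surface expression. In atrial muscle the L-type current through Cav1.2 and Cav1.3 triggers calcium release from the sarcoplasmic reticulum, and the T-type current through Cav3.1 and Cav3.2 flows at more negative voltages and is known from pacemaker and developing heart cells.

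Both starts of Cacnb2 and the 3 starts of Cacna1c in the RefSeq promoter table (GRCm38.p6) are shown. These genes held the probe sets with the largest differences. Each line holds the 250 bases before a start, read 5′ to 3′ on the gene's strand, and these are alternative starts that the probe sets could not be assigned to. Capitals mark TGACG (the half-site of the cyclic AMP response element), GGGCGG (the GC box) and TGGAAA (the core bound by NFAT factors), on either strand.
Cacnb2, first start, chr2:14604056-14604305, plus strand: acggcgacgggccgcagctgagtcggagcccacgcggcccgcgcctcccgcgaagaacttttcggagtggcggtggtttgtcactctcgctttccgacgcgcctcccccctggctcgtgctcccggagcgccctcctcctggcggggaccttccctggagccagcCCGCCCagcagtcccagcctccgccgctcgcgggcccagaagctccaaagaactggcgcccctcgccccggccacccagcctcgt
Cacnb2, second start, chr2:14823842-14824091, plus strand: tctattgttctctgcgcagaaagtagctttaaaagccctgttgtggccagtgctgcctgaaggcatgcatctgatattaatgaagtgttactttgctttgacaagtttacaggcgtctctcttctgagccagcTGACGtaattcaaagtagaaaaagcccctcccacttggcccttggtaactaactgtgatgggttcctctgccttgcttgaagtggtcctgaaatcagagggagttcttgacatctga
Cacna1c, first start, chr6:119196410-119196659, minus strand: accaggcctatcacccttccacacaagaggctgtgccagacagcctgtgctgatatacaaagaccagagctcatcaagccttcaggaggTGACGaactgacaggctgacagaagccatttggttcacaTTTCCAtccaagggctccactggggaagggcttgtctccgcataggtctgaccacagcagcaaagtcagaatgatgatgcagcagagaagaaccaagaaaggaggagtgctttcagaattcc
Cacna1c, second start, chr6:119108496-119108745, minus strand: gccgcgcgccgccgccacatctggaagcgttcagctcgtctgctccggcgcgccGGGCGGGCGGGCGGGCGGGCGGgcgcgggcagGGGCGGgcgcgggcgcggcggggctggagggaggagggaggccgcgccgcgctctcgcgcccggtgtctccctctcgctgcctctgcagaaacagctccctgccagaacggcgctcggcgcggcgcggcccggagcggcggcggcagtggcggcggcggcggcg
Cacna1c, last start, chr6:118757975-118758224, minus strand: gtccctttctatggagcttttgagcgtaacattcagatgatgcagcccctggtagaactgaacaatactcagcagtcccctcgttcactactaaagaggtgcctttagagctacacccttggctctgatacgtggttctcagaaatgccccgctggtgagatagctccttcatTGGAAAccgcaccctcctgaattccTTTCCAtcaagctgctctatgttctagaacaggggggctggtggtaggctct

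In both genes a GC-rich start stood beside starts of lower GC content. The Cacnb2 windows held 73.2% and 46.0% G or C, and the Cacna1c windows 51.6%, 82.8% and 50.4%. TGACG was found once at the second Cacnb2 start and once at the first Cacna1c start, and GGGCGG at the first Cacnb2 start and, in overlapping copies, at the second Cacna1c start. The table held 16 windows for 8 of the 10 genes, without Cacna1g and Cacna1h. TGACG lay in 3 of these 16 windows and in 17.8% of the 32851 windows of all genes. GGGCGG lay in 8 and in 32.7%, and TGGAAA in 2 and in 18.6%. Both windows with TGGAAA belonged to Cacna1c, at its first and last starts. Another 10 motifs were searched on both strands. Of the 16 windows, AAGTG (NKX2) lay in 3 (40.7% of all), CCAAT in 4 (33.8%), TATAAA in 1 (12.4%) and CATTCC in 1 (12.6%). The windows held 0 copies of AGATAA (9.99% of all), TGANTCA (6.75%), CACGTG (6.02%), MEF2 (2.92%), CArG (1.47%) and TGACGTCA (1.55%), which contains the half-site. These matches describe letters in these windows and no binding was measured.

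The values were log2 expression levels made by the submitters with RMA, which corrects background, normalizes arrays to each other and summarises the probes of a set. Array medians lay between 4.96 and 5.01. With limma, 27000 probe sets were tested, those whose mean over the 4 arrays was at least 4.39 (the 40th percentile). A probe set was called at a Benjamini-Hochberg adjusted p under 0.05 over all 27000, and "fell" or "rose" is written only of called probe sets. Changes are stimulated minus control, as differences of log2 levels. The number of arrays limits the precision, since 0.333 is the smallest two-sided p that exact permutation of 2 and 2 arrays allows. Across the probe sets tested, the controls correlated at r = 0.991, the stimulated arrays at 0.989, and arrays of different groups at 0.969 to 0.975. These correlations are across probe sets, which are not independent replicates.

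Among the subunits, the largest differences between the groups were on probe sets of Cacnb2 and Cacna1c, with stimulated levels 2.53-fold and 2.12-fold lower. The other Cacna1c probe set was 1.31-fold lower. With tested probe sets averaged by gene, Cacnb2 (-1.16) differed most, and Cacna1c (-0.73) stood near Cacna1g (-0.71) and Cacna1h (-0.66). One Cacna1c probe set, 1435730_at, was the only one of the 17 member probe sets tested that was called, which is 1 of 17 beside 3.85% of all probe sets tested called in either direction and 1.38% called lower. At an unadjusted p under 0.05, 6 of the 17 member probe sets were lower and 1 was higher, beside 11.9% lower and 12% higher of all probe sets tested. Both T-type members read lower on both stimulated arrays without passing the test. Cacna1d, Cacnb1, Cacnb4, Cacna2d1 and Cacna2d2 had 0 called probe sets (limma), and Cacnb1 had the 1 with a higher level at an unadjusted p under 0.05.

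**Figure D1:**
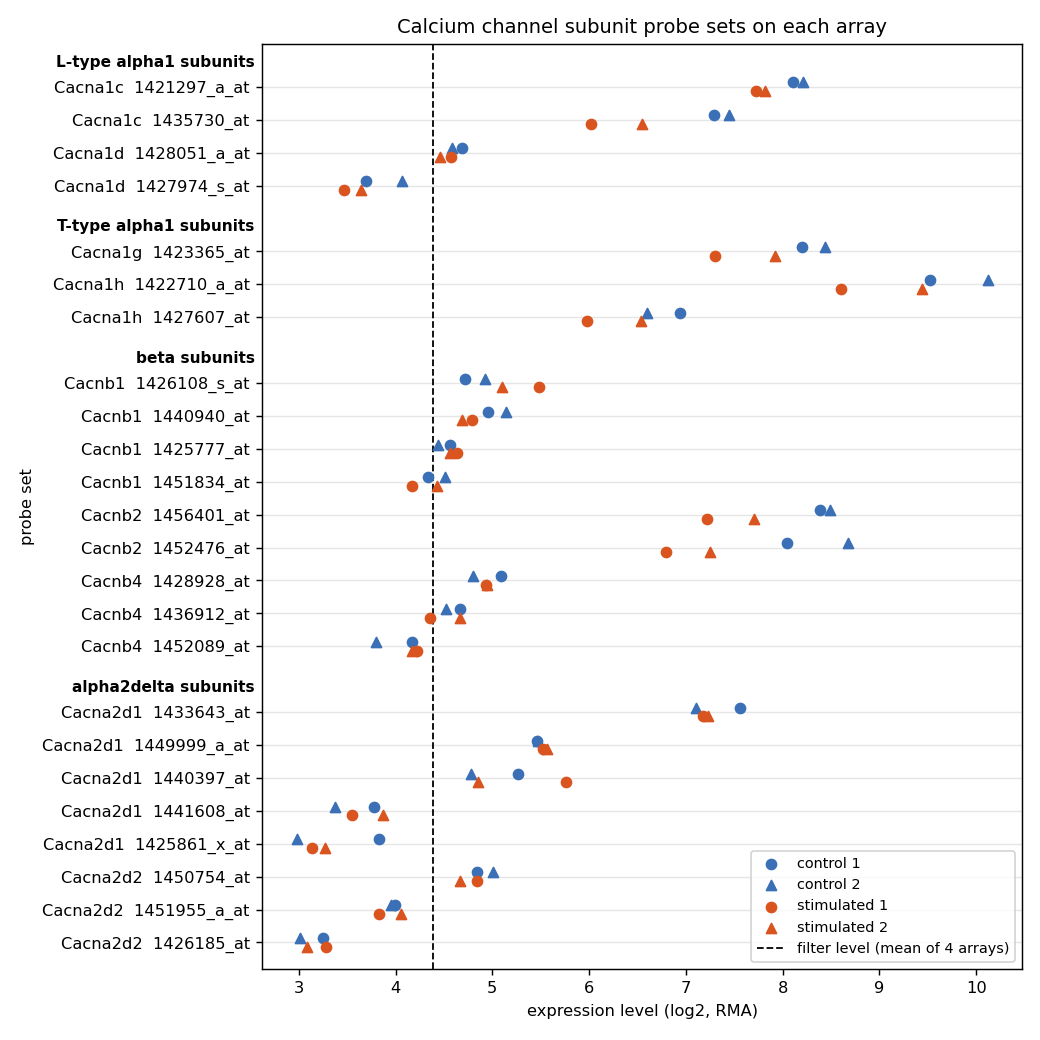
Log2 expression level (x axis) of each of the 24 subunit probe sets (rows, grouped by subunit class) on control array 1 and 2 (blue circle and triangle) and stimulated array 1 and 2 (orange circle and triangle), with the filter level of 4.39 as a dashed line. The stimulated points of Cacna1c, Cacna1g, Cacna1h and Cacnb2 lie to the left of the control points, while on the tested Cacnb4 probe sets the groups overlap.

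Cacna1c encodes the pore of Cav1.2, the main L-type channel of heart muscle. Its probe set 1435730_at read 7.29 and 7.44 on the control arrays and 6.02 and 6.55 on the stimulated arrays. It fell by 1.08 ± 0.20 (SE, n = 2 per group) on the log2 scale, with a 95% interval from -1.58 to -0.59 (limma, adjusted p = 0.0479). The groups did not overlap, and stimulated 1 was the lowest array. The call did not hold with any array left out: the change was -1.16 without control 1 (adjusted p = 0.173), -1.004 without control 2 (0.231), -0.82 without stimulated 1 (0.123) and -1.35 without stimulated 2 (0.0584). It also ended without the filter (adjusted p = 0.0581) and with each array centred on its median (adjusted p = 0.0527).

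The other Cacna1c probe set, 1421297_a_at, read 8.11 and 8.21 in controls and 7.73 and 7.82 with stimulation. It also showed no overlap, and its change was -0.39 ± 0.13 (SE, adjusted p = 0.146). The change on 1435730_at was thus larger by 0.69 on the log2 scale. Taken within each array, the difference between these probe sets was -0.82 and -0.77 in controls and -1.71 and -1.27 with stimulation, so that it too did not overlap. Whether they measure different transcripts of Cacna1c was not tested.

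Cacna1d encodes Cav1.3, an L-type pore that opens at more negative voltages than Cav1.2 and is found in atrial and pacemaker cells. Its probe set 1428051_a_at read 4.69 and 4.59 in controls and 4.57 and 4.46 with stimulation, close to the filter level. The change was -0.12 ± 0.13 (SE), with a 95% interval from -0.44 to 0.20 (adjusted p = 0.647), and ranged from -0.17 to -0.07 with an array left out. The other probe set, 1427974_s_at, lay below the filter, at 3.70 and 4.06 against 3.47 and 3.64, and was not tested. Both read lower on both stimulated arrays than on both control arrays, and the interval of the one tested included 0.

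Cacna1g encodes the T-type pore Cav3.1. Its probe set 1423365_at read 8.20 and 8.44 on the control arrays and 7.30 and 7.92 on the stimulated arrays. The groups did not overlap, and the 2 stimulated arrays stood further apart than the controls. The change was -0.71 ± 0.23 (SE), 1.63-fold lower, with a 95% interval from -1.26 to -0.15 (adjusted p = 0.133). Without stimulated 1 it was -0.40, and without stimulated 2 it was -1.02.

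Cacna1h encodes the other T-type pore among the members, Cav3.2. Its probe set 1422710_a_at read 9.53 and 10.12 in controls against 8.60 and 9.44 with stimulation. Control 1 and stimulated 2 stood only just apart. The change was -0.80 ± 0.32 (SE, adjusted p = 0.202), or -0.38 without stimulated 1, -0.51 without control 2, -1.10 without control 1 and -1.22 without stimulated 2. The second probe set, 1427607_at, read 6.94 and 6.60 against 5.98 and 6.54, so that control 2 and stimulated 2 nearly met, and its change was -0.51 ± 0.22 (adjusted p = 0.237), or -0.23 without stimulated 1.

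Cacnb2 encodes the beta subunit that accompanies Cav1.2 in heart muscle. Its probe set 1452476_at read 8.04 and 8.68 on the control arrays and 6.79 and 7.25 on the stimulated arrays. With a change of -1.34 ± 0.26 (SE) and a 95% interval from -1.97 to -0.71, it had the largest difference in the family (limma, adjusted p = 0.0505). Probe set 1456401_at read 8.38 and 8.49 against 7.21 and 7.71, a change of -0.98 ± 0.19 (adjusted p = 0.0514). Neither overlapped between groups, and both missed the threshold by a small margin.

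The Cacnb2 result therefore lay on the threshold. Probe set 1456401_at passed when each gene was tested through its brightest probe set (adjusted p = 0.0441), and Cacnb2 passed when probe sets were averaged by gene (-1.16 ± 0.21, adjusted p = 0.0396). In that averaged fit Cacna1c passed as well (-0.73 ± 0.15, adjusted p = 0.049). With an array left out, the change of 1452476_at ranged from -1.66 to -1.02 and that of 1456401_at from -1.22 to -0.73, and neither passed. Both stayed lower in all 4 of these fits, as they had to with groups that did not overlap.

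**Figure D2:**
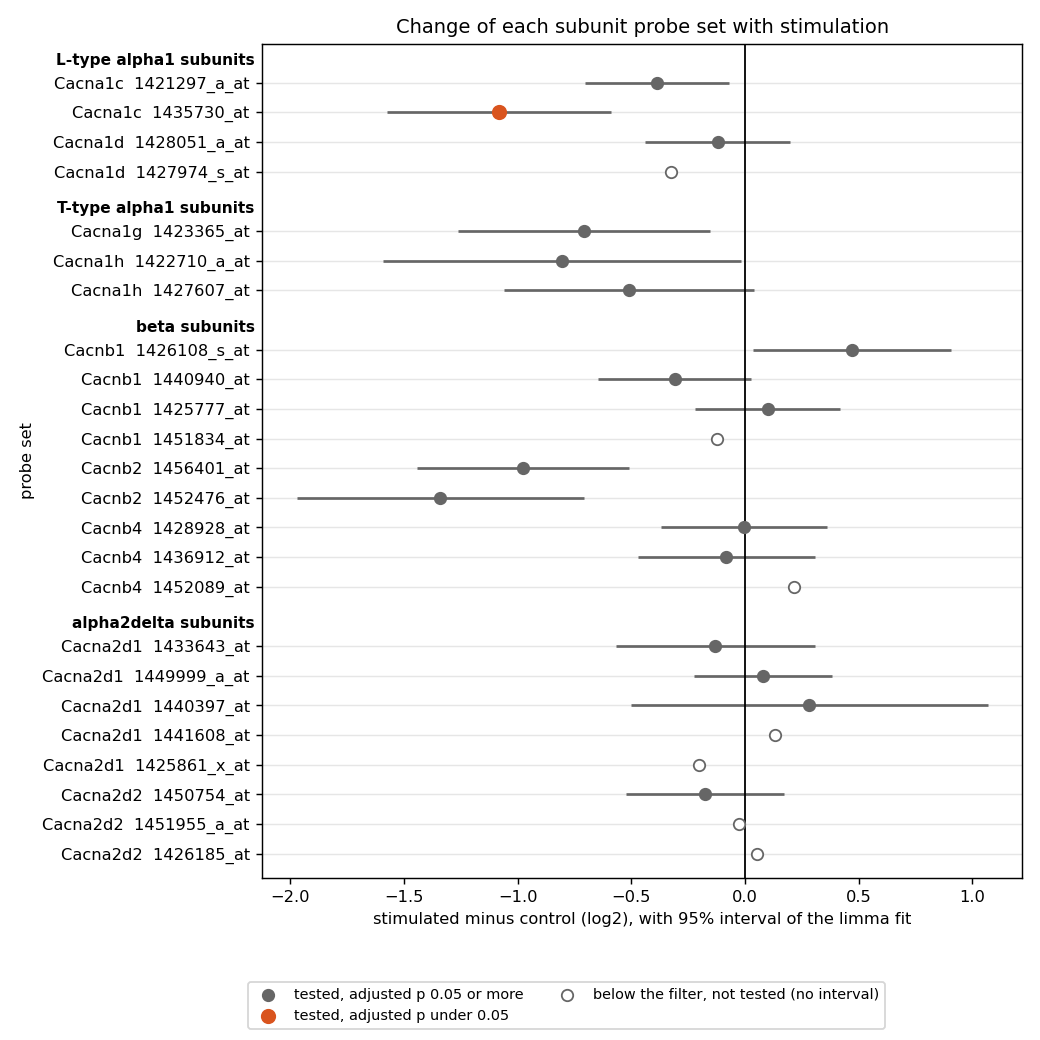
Change with stimulation on the log2 scale (x axis) for each of the 24 subunit probe sets (rows). Bars are 95% intervals of the limma fit with n = 2 per group, the orange point is the called Cacna1c probe set at -1.08, and open points lay below the filter and have no interval.

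Cacnb1 encodes the beta subunit best known from skeletal muscle. Its 4 probe sets read between 4.17 and 5.48 on all arrays and did not move together. Probe set 1426108_s_at was higher on both stimulated arrays, at 5.48 and 5.10 against 4.71 and 4.93 in controls, a change of 0.47 ± 0.18 (SE, adjusted p = 0.181), or 0.28 without stimulated 1. Probe set 1440940_at was lower on both, at 4.79 and 4.68 against 4.95 and 5.14, a change of -0.31 ± 0.14 (adjusted p = 0.241). The difference between these probe sets within an array was -0.24 and -0.21 in controls and 0.69 and 0.41 with stimulation. Probe set 1425777_at differed by 0.10 (adjusted p = 0.71), and 1451834_at lay just below the filter, with overlapping arrays.

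Cacnb4 encodes a beta subunit best known from brain. On 1428928_at its levels were 5.09 and 4.80 in controls and 4.94 and 4.95 with stimulation, with a change of -0.01 and a 95% interval from -0.37 to 0.36. Probe set 1436912_at read 4.67 and 4.52 against 4.36 and 4.67, a change of -0.08. The groups overlapped on both. The third probe set, 1452089_at, lay below the filter at 3.80 to 4.22 and was not tested.

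Cacna2d1 encodes the main alpha2delta subunit of heart and skeletal muscle and had 5 probe sets. Probe set 1433643_at read 7.56 and 7.11 in controls and 7.18 and 7.23 with stimulation. The stimulated arrays lay between the control arrays, and the change was -0.13 ± 0.18 (SE), with a 95% interval from -0.57 to 0.31 (adjusted p = 0.73). That interval holds -0.39, the change of the Cacna1c probe set 1421297_a_at, so it does not show that Cacna2d1 stayed level. Probe set 1449999_a_at differed by 0.08 (95% interval -0.23 to 0.38), and 1440397_at, with stimulated arrays at 5.76 and 4.85, by 0.28 (95% interval -0.50 to 1.07). Probe sets 1441608_at and 1425861_x_at lay below the filter, between 2.98 and 3.87, and overlapped.

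Cacna2d2 encodes an alpha2delta subunit best known from the cerebellum. On 1450754_at it read 4.84 and 5.01 in controls and 4.84 and 4.66 with stimulation, a change of -0.18 ± 0.14 (SE, adjusted p = 0.515) that ranged from -0.26 to -0.09 with an array left out. The 2 other probe sets, 1451955_a_at and 1426185_at, lay below the filter between 3.01 and 4.06, with overlapping arrays.

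Of the 24 probe sets, 17 passed the filter and 7 did not. Among the 17, both stimulated arrays lay below both control arrays in 10, or 58.8%, where 28.8% of all probe sets tested did so, and above them in 3, where 25.3% of all did so. The median change of the 17 was -0.18, beside -0.02 over all probe sets tested. Probe sets of 1 gene are not independent, whether or not they measure the same transcript.

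The members split by brightness, at a control level of 6 that was chosen after the values were seen. The 8 probe sets above it were those of Cacna1c, Cacna1g, Cacna1h and Cacnb2 and 1 of Cacna2d1, and in 7 of them, all but Cacna2d1, the stimulated arrays lay below the controls. Of all 17328 probe sets tested above that level, 33.1% did so and the median change was -0.03. The 9 dimmer probe sets tested differed by -0.31 to 0.47. RMA compresses differences near the bottom of its range, so changes of these dim probe sets can be understated.

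**Figure D3:**
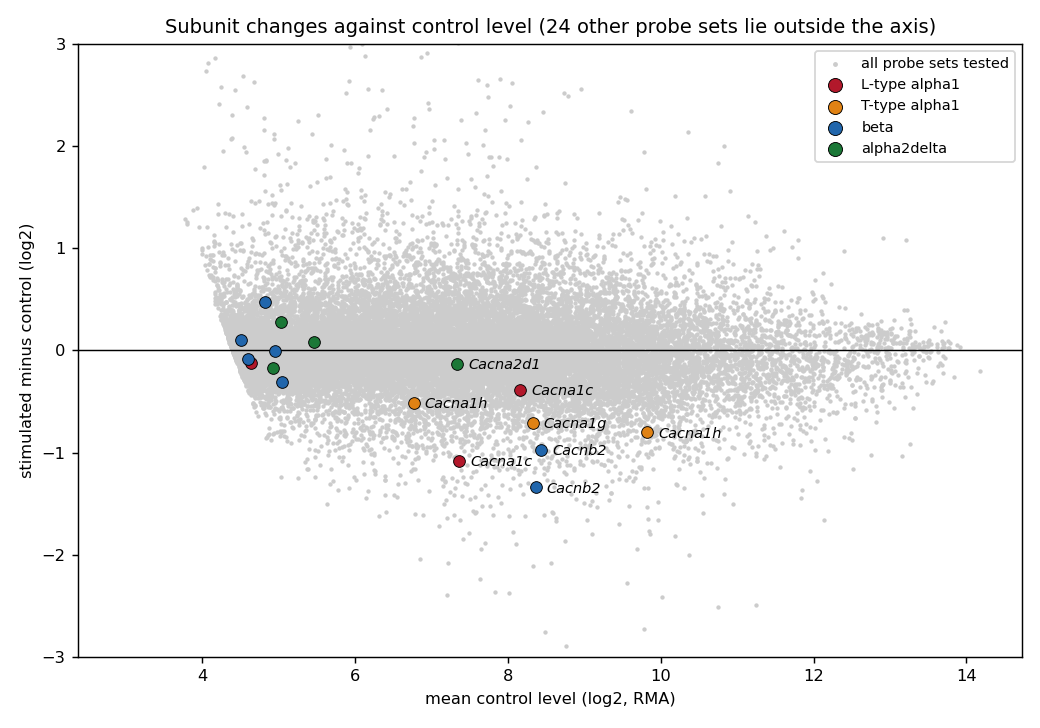
Change with stimulation (y axis, log2) against mean control level (x axis, log2) for the 17 tested subunit probe sets, coloured by subunit class, over all 27000 probe sets tested in grey, with 24 other probe sets outside the plotted range. The labelled subunits with control levels above 6 lie below 0, Cacna2d1 closest to it, and the unlabelled dim ones lie on both sides.

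The stimulated arrays differed from each other in the same direction on all 8 bright probe sets, each of which read lower on stimulated 1 than on stimulated 2, by a median of 0.51. Between the controls the median difference of these probe sets, array 2 minus array 1, was 0.13. Across all probe sets tested, 45.3% read lower on stimulated 1 than on stimulated 2, and the median difference was -0.03. The changes without stimulated 1 were therefore smaller than those without stimulated 2 on each of the 7 lower probe sets, for example -0.73 against -1.22 on 1456401_at of Cacnb2. What sets these 2 arrays apart was not tested.

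The other voltage-gated calcium channel genes, those for neuronal and retinal pores, the skeletal muscle pore, further alpha2delta subunits and the gamma family, gave 0 calls in either direction among 8 genes tested of 16 listed (limma, and 0 probe sets at an unadjusted p under 0.05). Genes with a call made up 3.68% higher and 1.97% lower of the 13050 genes tested. The 14 probe sets had a median change of -0.05. The smallest p belonged to Cacng2, a gamma subunit gene known for glutamate receptor trafficking (-0.31 ± 0.13, adjusted p = 0.223; -0.07 and 0.03 on others), and its paralog Cacng7 (0.25 ± 0.14, adjusted p = 0.338; -0.26 on another, below the filter). Cacng8 (-0.36 ± 0.25; 0.24 on another, below the filter) and Cacna1a, the pore of neuronal P/Q-type channels (-0.19 ± 0.13), followed. With 1 array left out Cacng8 ranged from -0.71 (without control 1) to -0.01 (without control 2), Cacng7 from 0.16 to 0.34, and Cacna1a lay between -0.27 and -0.10.

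Regulators, kinases and scaffolds of the channels also gave 0 calls among 21 genes tested of 27 listed (limma). At an unadjusted p under 0.05 (limma), 8 of their 39 probe sets were lower and 2 were higher, where 11.9% and 12% of all tested were. Their median change was -0.11. In 16 of the 39, both stimulated arrays lay below both control arrays, beside 28.8% of all, and in 3 above, beside 25.3%. Prkaca, the catalytic subunit of protein kinase A, which raises the L-type current, read lower on both its probe sets (-0.58 ± 0.13, adjusted p = 0.0657, and -0.59). Gem, a small GTPase that binds beta subunits and suppresses L-type current, read 4.21 and 4.22 in controls and 4.89 and 5.63 with stimulation. Its change was 1.04 ± 0.245 (SE, adjusted p = 0.0735), from a control level below the filter, or 0.68 without stimulated 2 and 1.41 without stimulated 1. Cav3, caveolin 3 of muscle membranes, differed by -0.76 ± 0.21 (adjusted p = 0.104), and Prkacb by -0.62 ± 0.18 (adjusted p = 0.114; -0.08 on its other tested probe set), or -0.38 without stimulated 2.

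Among the genes of calcium release, uptake and extrusion, 1 of 21 tested rose and 2 fell, beside 3.68% and 1.97% of all genes tested. Their 49 probe sets had a median change of -0.56. At an unadjusted p under 0.05 (limma), 25 of the 49 were lower and 1 was higher, beside 11.9% and 12% of all probe sets tested. Both stimulated arrays lay below both control arrays in 31 of them, beside 28.8% of all, and above in 2, beside 25.3%. Ryr1, the skeletal muscle release channel, rose by 4.55 ± 0.29 (SE, adjusted p = 0.00639), from 4.19 and 3.69 to 8.12 and 8.86. Its control level lay below the filter, so it was tested only through its stimulated level, and the size of the rise rests on a control value near the bottom of the range. Its other probe set, below the filter, differed by 0.07. Trdn, triadin of the release complex, fell on 2 of its 6 probe sets, by 1.12 ± 0.19 and 1.29 ± 0.20 (adjusted p = 0.0409 and 0.036), and the other 4 differed by -1.27 to -0.93. Ryr2, the cardiac release channel that L-type calcium entry opens, fell by 0.85 ± 0.16 (adjusted p = 0.0496), from 9.52 and 9.85 to 8.77 and 8.91. Hrc, a calcium-binding protein of the reticulum, differed by -0.88 ± 0.20 (adjusted p = 0.0667). With an array left out, Ryr1 lost its call only without control 2 (4.29). Ryr2 (-1.01 to -0.68) and Trdn (-1.32 to -0.93 and -1.51 to -1.07) lost theirs in each of the 4 fits. The groups did not overlap on these probe sets, so no direction could turn there.

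Of the genes of calcium-responsive transcription, 0 rose and 2 fell among 19 tested, beside 3.68% and 1.97% of all genes tested. The median change was -0.11 over 52 probe sets. At an unadjusted p under 0.05 (limma), 14 of the 52 were lower and 3 were higher, beside 11.9% and 12% of all probe sets tested. Both stimulated arrays lay below both control arrays in 21 of them, beside 28.8% of all, and above in 9, beside 25.3%. Mef2a, a muscle transcription factor, fell on 1425426_a_at by 1.10 ± 0.17 (adjusted p = 0.0342), while its other 5 probe sets differed by -0.46 to -0.13. Its relative Mef2c fell on 1451506_at by 0.99 ± 0.18 (adjusted p = 0.0434), and its other 4 differed by -0.88 to -0.63. Ppp3cb, a catalytic subunit of the calcium-dependent phosphatase calcineurin, differed by -0.68 ± 0.15 (adjusted p = 0.0649; -0.47 to -0.03 on others). Rcan2, a calcineurin regulator, differed by -1.19 ± 0.27 (adjusted p = 0.0691) and -1.01. With any array left out, Mef2a (-1.29 to -0.91) and Mef2c (-1.20 to -0.79) did not keep their call. Their groups did not overlap on these probe sets, so the direction could not turn.

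**Figure D4:**
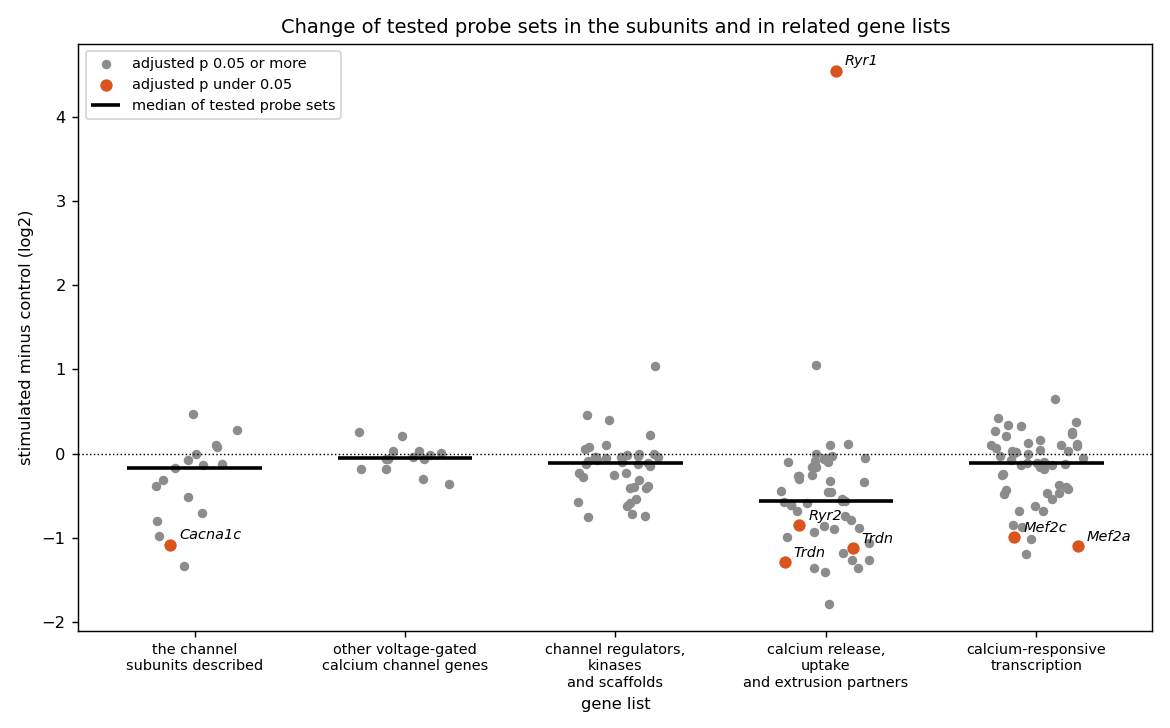
Change with stimulation (y axis, log2) of every tested probe set of the subunits and of the 4 related gene lists (x axis), with the median as a bar and called probe sets in orange with their gene symbols. The median of the calcium release, uptake and extrusion list, -0.56, lies furthest from 0, and Ryr1 at 4.55 is the one called rise.

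For the labelled atrial origin, all 10 atrial muscle markers reached the filter level in controls, among them Myl7, the atrial myosin light chain, at 13.85 and 13.84. Of these markers Nppa rose by 2.00 and Myh6 and Gja5 fell by 2.89 and 2.40 (adjusted p = 0.00909, 0.02 and 0.0268). The other Myh6 probe set, 1448826_at, differed by -1.03 (adjusted p = 0.111). The markers' 16 tested probe sets had a median change of -0.35, against -0.18 for the subunits. In 11 of the 16, both stimulated arrays lay below both control arrays, and in 1 they lay above. Among the 17 subunit probe sets these counts were 10 and 3. Without control 1 or control 2 the calls of Myh6 and Nppa were lost, that of Nppa also without stimulated 2, and that of Gja5 in each of the 4 fits (changes of -3.35 to -2.44, 1.86 to 2.14 and -2.79 to -2.004). The summed signal of the markers on the linear scale was 60795 to 61348 in controls and 50465 to 59752 with stimulation, with the lower value on stimulated 1. Whether the lower subunit levels go with a lower share of muscle RNA was not tested, and in bulk RNA fewer cells of a type and less RNA per cell cannot be told apart.

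Markers of other cells were in part above the filter level in controls, namely 4 of 7 fibroblast, 4 of 5 smooth muscle, 1 of 5 endothelial, 3 of 6 leukocyte, 3 of 6 neuronal, 3 of 7 skeletal muscle, 2 of 5 ventricular and 3 of 6 conduction tissue markers. Of these markers, Ptprc of leukocytes, Myh11 of smooth muscle and Pecam1 of endothelium lay below it on all arrays. Others of the same lists lay above it in controls, namely Cd3e (mean 6.36), Lyz2 (5.20), Cd79a (4.88) and Kdr (5.83). The smooth muscle markers averaged 9.35 and 9.67 in controls. Summed signals moved with the groups for leukocyte markers (182 and 201 in controls, 249 and 268 with stimulation), where Cd68, a lysosomal gene, rose by 2.08 ± 0.23 (adjusted p = 0.0231) from a control level just below the filter, and for ventricular markers (953 and 1037, against 552 and 796). Those of fibroblasts (160 and 305, against 156 and 249), smooth muscle (17065 and 20293, against 19604 and 23445), neurons (231 to 256, against 211 to 249), skeletal muscle (203 and 234, against 214 and 254) and conduction tissue (325 and 393, against 350 and 399) overlapped, and those of endothelium (124 and 110, against 110 and 100) met. One conduction gene, Tbx3, fell on 2 of its 5 probe sets, by 1.34 and 0.88 (adjusted p = 0.0268 and 0.0342), and its other 3 differed by -0.14 to 0.08. With an array left out, Tbx3 (-1.51 to -1.18 on its probe set of larger change) and Cd68 (1.76 to 2.39) lost their calls in each of the 4 fits. Their part in the subunit changes was not tested.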

How the data were processed

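Total RNA of 4 HL-1 samples was biotin-labelled, and each sample went onto its own Affymetrix array. The deposited values were log2 levels made by the authors with RMA, per the submitters' processing notes. The sources used here give neither its version nor its settings. Scanner files were not used. Of 45101 probe sets, 64 manufacturer's controls were left out. In the platform annotation 34945 of the rest had 1 gene symbol, 932 several and 9160 none.

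Every probe set whose mean over the 4 arrays reached the 40th percentile entered 1 linear model per probe set (limma 3.58.1 under R 4.3.3), with two-sided moderated tests and p-values adjusted by Benjamini-Hochberg over all 27000. The test was also run on simulated data with known changes and independent noise. That run cannot vouch for the calls made on these 4 arrays. Gene lists count a gene as called where any of its probe sets was. Named were all member probe sets and, from each of the 4 pathway lists, called genes and the 4 with the smallest p, with other probe sets given where a change differed by over 0.5. Of the cell type markers, called genes and a few others were named, chosen after their values were seen. Members, lists and this rule were chosen with earlier results of these data known. The controls were numbered in accession order, and a treatment protocol also gives control 2 that number. Promoter sequences are RefSeq's, from GRCm38.p6, matched by symbol.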

Additional observations from a re-analysis of the deposited data

How the results depend on the processing

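Beside 1 called member probe set, 0 were called without the filter and with each array centred on its median, 3 with a 60th percentile filter and 3 with an intensity trend in the prior variance (Cacna1c 1435730_at and both of Cacnb2 in each case), and 2 genes with probe sets averaged by gene. With 1 probe set per gene the count was 1, but the call was Cacnb2 1456401_at in place of Cacna1c 1435730_at. Cacna1c was tested there through its brighter probe set, 1421297_a_at, and was not called (limma, adjusted p = 0.124). No member call held with any array left out. Over all probe sets 1039 were called, and 7 to 117 with an array left out, where the lone array of a group is assumed to vary like the others: 7 without control 2, 25 without control 1, 89 without stimulated 2 and 117 without stimulated 1.

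With the replicate block 2041 probe sets were called, and 4 members, Cacna1h 1422710_a_at (adjusted p = 0.0372) beside the 3 above. Of the list genes, Gem (0.0485), Hrc (0.0398) and Rcan2 (0.0257) were called there as well. The labels do not tie equal numbers to a shared culture or day, and with 2 pairs the correlation of the deviations (0.31 across probe sets) does not settle it.

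Alternatives for list genes were added after seeing the data: Ppp3cb (adjusted p = 0.0491) and Prkaca (0.0499) passed with the 60th percentile filter, Mef2c (0.0529) and Ryr2 (0.0584) did not without a filter, nor Ryr2 (0.0534) with centred arrays. The 7 lower bright probe sets kept their sign under all alternatives, which is no separate support. Their groups did not overlap, so leaving out an array could not turn the sign. The filter, trend and block settings leave the change as it is. Signs turned for 4 uncalled probe sets: Cacna2d1 1433643_at (-0.35 to 0.0934 with an array left out) and 1440397_at (-0.17 to 0.74), and Cacnb4 1428928_at (-0.15 to 0.14, and 0.008 with centred arrays) and 1436912_at (-0.24 to 0.0749). The cause was not tested. Dim probe sets near the filter limit what can be seen of Cacna1d, Cacnb1, Cacnb4 and Cacna2d2.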
